A study of Homo sapiens with 42 samples.

Results

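REEP3, JMJD1C, JMJD1C-AS1 and NRBF2 are neighbouring genes on the long arm of chromosome 10, and their RNA levels are described here in human leukaemia cells in which the chromatin reader ENL was degraded, inhibited or disrupted. They are 4 of the 58721 genes counted in every table of the series and were matched by GENCODE symbol. All 4 passed the filter on low counts in all 4 tables. They were chosen by the REEP3 values measured with the ENL degrader MS41, which were far above DMSO in the SEMK2 line, so the SEMK2 values of MS41 against DMSO, and every MS41 value of REEP3, are given as a description with no test. The working description of that rise as confined to SEMK2 held only for its size: REEP3 was also higher, by less, in 3 other settings described further on.

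The 42 libraries hold RNA of 2 established human lines, each with an MLL-AF4 fusion oncogene (KMT2A-AFF1). MV4;11 cells, genotype wild type, received DMSO, MS41, MS41N or PFI-6, the 3 compounds at 100 nM, for 6 or 24 h, with 3 libraries for each of the 4 treatments and each time. SEMK2 cells, also wild type, received DMSO or MS41 at 100 nM, 3 libraries each, and the labels do not say which of the 2 times applied. MV4;11 cells labelled as ENL knockouts carried guide 1 or guide 2 against ENL, and their controls a negative guide, with 2 libraries per guide; whether these were pools or clones is not stated. The last groups are MV4;11 cells recovered from mice, 3 libraries after vehicle and 3 after MS41; dose, time, host strain and age are not in the labels. MS41 degrades ENL, PFI-6 is an inhibitor that occupies the YEATS domain with which ENL binds acylated histones, and MS41N is the companion compound of MS41 in the series. Titles name MS41N but the protocol text names MS47N at that dose, so the identity and dose of MS41N rest on reading both as 1 compound. The labels do not say whether replicates came from separate cultures or mice, and the p-values therefore cover only the spread between libraries, which may be technical.

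REEP3 belongs to the REEP family of membrane proteins that bend the endoplasmic reticulum (ER) into tubules, and it keeps ER membrane off the chromosomes during mitosis. JMJD1C is a large nuclear protein of the KDM3 family of JmjC-domain proteins, whose best-known members remove methyl groups from lysine 9 of histone H3, and it has been studied as a dependency of acute myeloid leukaemia. JMJD1C-AS1 is a long non-coding RNA read from the strand opposite to JMJD1C. NRBF2 is a subunit of the class III phosphatidylinositol 3-kinase complex that starts autophagosome formation. ENL is a subunit of the super elongation complex, through which MLL fusions keep their target genes transcribed.

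On GRCh38, REEP3 (ENSG00000165476) runs on the plus strand of chromosome 10 from 63521363 to 63625123. JMJD1C (ENSG00000171988) runs on the minus strand from 63167221 to 63521850. The 2 genes are head to head, and their annotated 5′ ends overlap by 488 bases. JMJD1C-AS1 (ENSG00000272767), a single annotated stretch of 1335 bases on the plus strand, lies from 63465229 to 63466563 wholly inside JMJD1C, where it also covers the first exon of a shorter JMJD1C transcript, and it starts 56.1 kb from the start of REEP3. NRBF2 (ENSG00000148572) lies on the plus strand from 63133247 to 63155031, and its start is 388 kb away. The strand setting of the counting is not given in the sources used here, so reads of JMJD1C and of JMJD1C-AS1, or of JMJD1C and REEP3 where they overlap, cannot be told apart with certainty.

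The regions upstream of 2 JMJD1C starts are shown because the members that were higher together in SEMK2, REEP3 and JMJD1C-AS1, lie across them on the other strand. Both windows hold the 250 bases before a RefSeq start of JMJD1C (GRCh38.p14, minus strand, written 5′ to 3′). The first of these starts lies 527 bases past the GENCODE start of REEP3, so its window falls within the span of REEP3. The window of the other falls within JMJD1C-AS1. Capitals mark GGGCGG, the box bound by SP and KLF factors, or its reverse complement CCGCCC, and CACGTG, the E-box.
JMJD1C start in REEP3, chr10:63521891-63522140: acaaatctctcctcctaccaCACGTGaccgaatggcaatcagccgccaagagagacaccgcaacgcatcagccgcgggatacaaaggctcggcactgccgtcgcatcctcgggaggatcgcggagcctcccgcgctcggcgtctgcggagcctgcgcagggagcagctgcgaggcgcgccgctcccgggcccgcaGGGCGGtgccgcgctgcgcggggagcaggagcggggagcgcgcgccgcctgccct
JMJD1C start in JMJD1C-AS1, chr10:63465978-63466227: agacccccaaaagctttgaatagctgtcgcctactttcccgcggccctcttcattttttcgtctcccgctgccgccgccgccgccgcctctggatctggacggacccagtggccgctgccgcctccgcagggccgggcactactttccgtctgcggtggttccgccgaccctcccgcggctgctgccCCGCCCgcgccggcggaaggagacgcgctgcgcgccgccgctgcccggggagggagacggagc
The first window is 72.0% G or C and holds 35 CpG dinucleotides, and the second is 72.0% G or C with 34, against a median of 11 CpG over the 35116 windows of this length in the RefSeq table. GGGCGG, searched on both strands, occurs once in each window and in 42.6% of all windows. CACGTG, which is its own reverse complement and overlaps no other motif searched, occurs once in the first window, not in the second, and in 6.34% of all windows. A match is a description of the letters only. NRBF2 and JMJD1C were matched in that table.

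Depth, in units of 1000000 counts per library, ranged from 102.3 to 156.5 in the MV4;11 compound table, from 155.9 to 230.6 in SEMK2, from 77.22 to 87.81 with guides and from 99.49 to 126.7 in the mice. MLLT1, the gene of ENL, was at 223 and 249.8 CPM (counts per 1000000 of the TMM-scaled library size) with the control guide, at 181 and 190 CPM with guide 1 and at 123 and 127 CPM with guide 2, so its RNA was lower with both guides. B precursor markers summed to between 1617 and 1720 CPM in SEMK2 with DMSO, and to between 6.20 and 7.52 CPM in MV4;11 with DMSO at 24 h. Myeloid markers summed to between 2013 and 2127 CPM in SEMK2 with DMSO and to between 2349 and 2400 CPM in those MV4;11 libraries. Of the 10 myeloid genes, 6 averaged at least 1 CPM in SEMK2 with DMSO, where ELANE had no counts. In those MV4;11 libraries 8 of the 10 did. Of the 10 B precursor genes, 8 did in SEMK2 with DMSO and 2 in those MV4;11 libraries. SEMK2 DMSO replicate 3 stood apart: without it, 2986 genes differed between MS41 and DMSO, in place of 291. In bulk RNA, fewer cells of a type and less RNA per cell cannot be told apart.

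In SEMK2, REEP3 was 3.87-fold higher with MS41 than with DMSO. Its level was 128.0, 129.8 and 139.4 CPM in the 3 DMSO libraries and 503.4, 526.6 and 507.2 CPM with MS41. Every MS41 library was far above every DMSO library, and the log2 fold change was 1.95 (SE 0.04). JMJD1C-AS1 stood at 3.61, 3.56 and 3.36 CPM with DMSO and at 13.2, 14.3 and 12.4 CPM with MS41, a log2 fold change of 1.92 (SE 0.08). These 2 members of the locus thus differed by nearly the same factor, and in neither did the groups overlap. JMJD1C, on the other strand, was at 410.9, 405.9 and 456.1 CPM with DMSO and at 391.3, 379.4 and 396.3 CPM with MS41, a log2 fold change of -0.13 (SE 0.04). Its MS41 libraries all lay below its DMSO libraries, by a small margin. NRBF2 was at 25.99, 25.01 and 25.54 CPM with DMSO and at 24.63, 25.65 and 25.79 CPM with MS41 (log2 fold change -0.01, SE 0.05), and its groups overlapped.

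Of the 21433 genes tested in SEMK2, 1.36% differed between MS41 and DMSO at an adjusted p under 0.05, which is given only as the background of the contrast that chose the locus. By log2 fold change among the 9602 genes with a mean of at least 3 on the log2 CPM scale, REEP3 ranked 1 and JMJD1C-AS1 ranked 2. JMJD1C-AS1, with a mean of 3.07, reached that cutoff only through its MS41 libraries, since its DMSO mean was 3.51 CPM. Its rank of 2 therefore depends on the same values that chose the locus. The rank of 1 of REEP3 only restates those values, since the locus was picked for that rise. The next genes by log2 fold change were TLR10, a Toll-like receptor, at 1.05 (SE 0.06) and IKZF3, a lymphoid transcription factor, at 0.83 (SE 0.06). Among all 21433 genes the ranks were 14 and 17, below genes with few counts: the 13 above REEP3 had 46 to 649 counts summed over the 6 libraries, against 343009 for REEP3. Without DMSO replicate 3 the log2 fold changes were 1.99 for REEP3, 1.89 for JMJD1C-AS1 and -0.07 for JMJD1C, so that JMJD1C value moved by over 1.5 times.

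**Figure D1:**
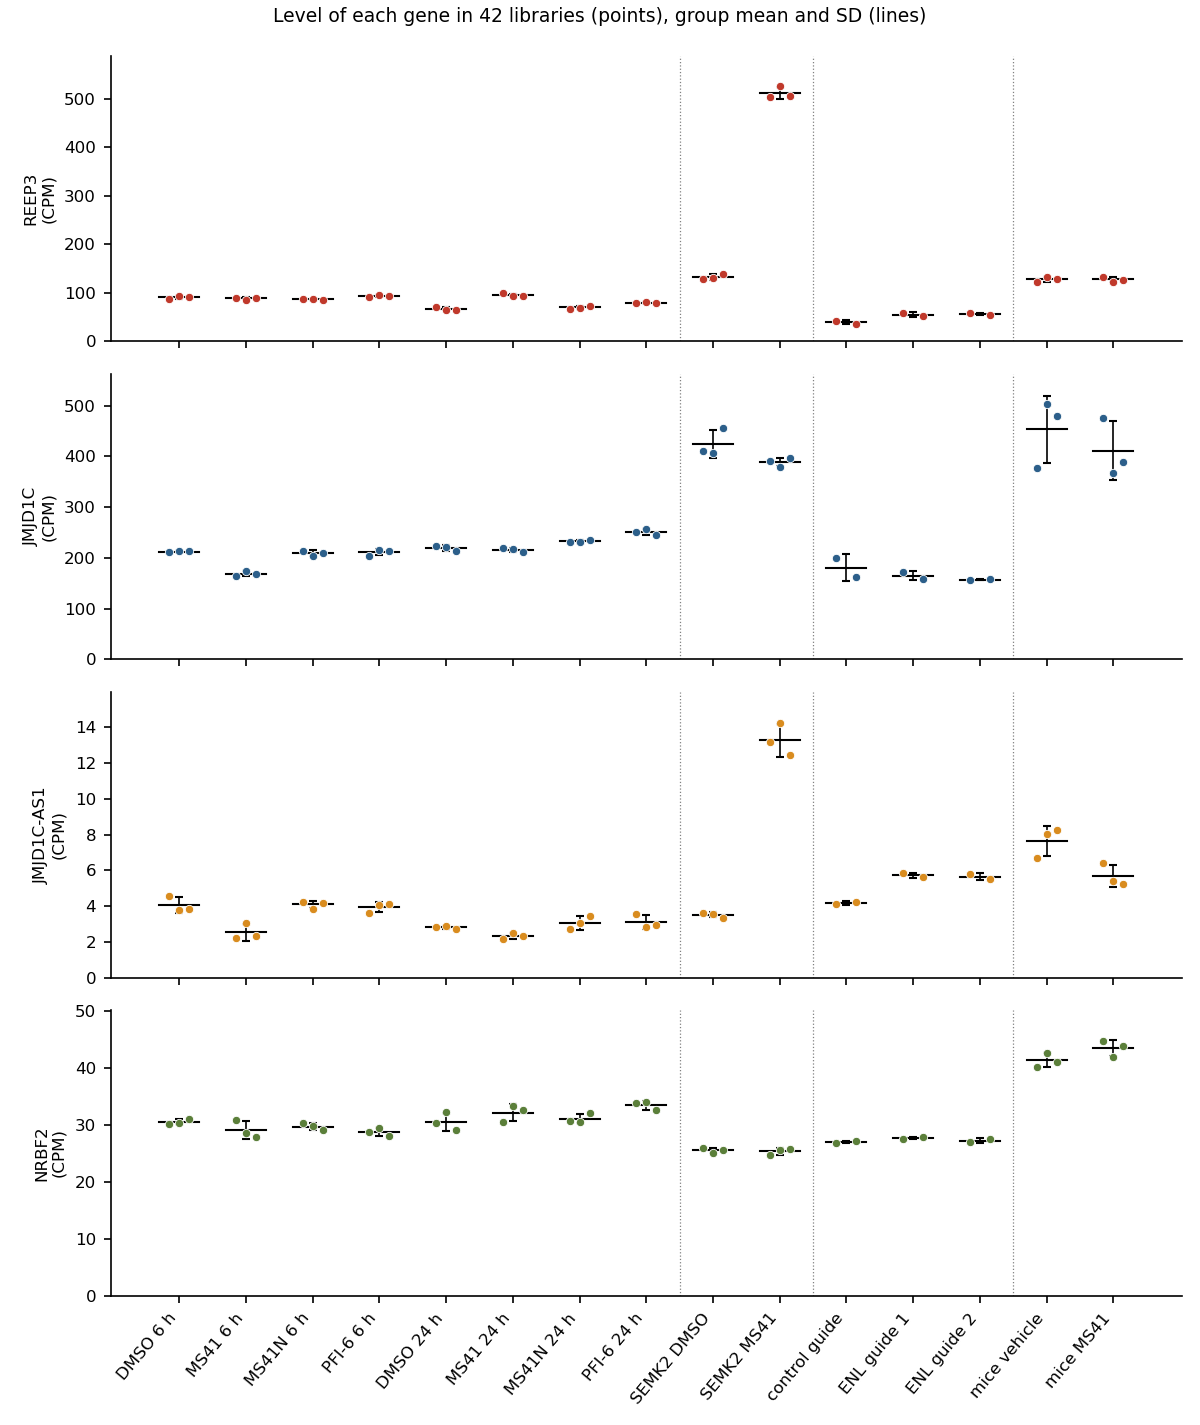
Level of each of the 4 genes in CPM (vertical axis, linear, from 0) in the 42 libraries, by group along the horizontal axis. Points are libraries, lines are group means and bars are SD, and dotted lines separate the 4 tables, which were scaled separately. REEP3 and JMJD1C-AS1 are high in the 3 SEMK2 MS41 libraries, at 503.4 to 526.6 and 12.4 to 14.3 CPM, while JMJD1C and NRBF2 in the same libraries are close to their DMSO levels.

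Guides against ENL tested the same genes in MV4;11 without a compound. REEP3 rose with both guides, and JMJD1C-AS1 rose over both guides in 1 contrast; JMJD1C and NRBF2 did not pass the test. REEP3 was at 42.6 and 36.2 CPM with the control guide, at 58.4 and 51.6 CPM with guide 1 and at 58.4 and 55.0 CPM with guide 2. All 4 libraries with ENL guides lay above both controls. The log2 fold change was 0.50 (SE 0.08) for the guides together, with an adjusted p of 0.0023 from the edgeR quasi-likelihood test, and 10.3% of the 17984 genes tested passed the same threshold. Guide 1 alone gave 0.48 (adjusted p 0.0076, with 7.48% of genes called) and guide 2 alone gave 0.52 (adjusted p 0.0067, with 4.94% called). Leaving out replicate 1 of guide 1 or of guide 2 ended the single-guide call of REEP3, with 0.39 (adjusted p 0.072) and 0.48 (adjusted p 0.064) in turn.

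JMJD1C-AS1 was at 4.10 and 4.25 CPM with the control guide, at 5.83 and 5.63 CPM with guide 1 and at 5.79 and 5.51 CPM with guide 2. The log2 fold change over both guides was 0.45 (SE 0.12, adjusted p 0.034), again with no overlap between ENL guides and controls. By the same edgeR test neither guide alone was called. Guide 1 gave 0.46 (adjusted p 0.064) and guide 2 gave 0.44 (adjusted p 0.094). The call over both guides was lost when any of the 6 libraries was left out, with adjusted p from 0.075 to 0.12 and values from 0.42 to 0.48. JMJD1C was at 199 and 162 CPM with the control guide, a wide spread, against 171 and 159 CPM with guide 1 and 156 and 158 CPM with guide 2. Its log2 fold change was -0.17 (SE 0.08, adjusted p 0.21), and without control replicate 2 it was -0.30 (adjusted p 0.012). NRBF2 stayed within 26.9 and 27.9 CPM in all 6 libraries, with a log2 fold change of 0.03 (SE 0.07, adjusted p 0.86, 95% interval -0.12 to 0.17). Myeloid markers also moved with the guides, from a sum of 1918 to 2160 CPM in controls to 2819 to 3153 CPM with ENL guides, and their part in these values was not tested.

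At 6 h in MV4;11, MS41 lowered the JMJD1C pair while REEP3 and NRBF2 did not separate from DMSO. JMJD1C was at 212, 213 and 213 CPM with DMSO and at 165, 174 and 169 CPM with MS41. It fell by 0.33 on the log2 scale (SE 0.03, adjusted p 7.7e-14), and 26.0% of the 22711 genes tested were called in that contrast. JMJD1C-AS1 was at 4.58, 3.77 and 3.84 CPM with DMSO and at 2.20, 3.08 and 2.30 CPM with MS41, and it fell by 0.69 (SE 0.12, adjusted p 1.1e-05). For both genes the groups did not overlap. REEP3 was at 87.6, 94.0 and 91.9 CPM with DMSO and at 90.3, 86.2 and 88.9 CPM with MS41, a log2 fold change of -0.04 (SE 0.03) with overlapping groups, given without a test. NRBF2 was at 30.6 ± 0.428 CPM with DMSO and 29.1 ± 1.58 CPM with MS41 (SD, n = 3 each; log2 fold change -0.07, SE 0.04, adjusted p 0.28).

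At 24 h the order of the locus was different. REEP3 was at 71.1, 65.4 and 65.0 CPM with DMSO and at 98.9, 94.0 and 93.7 CPM with MS41, a log2 fold change of 0.51 (SE 0.03, given without a test) with no overlap between groups. JMJD1C was at 224, 222 and 214 CPM with DMSO and at 219, 217 and 212 CPM with MS41 (log2 fold change -0.03, SE 0.03, adjusted p 0.47). JMJD1C-AS1 was at 2.82, 2.89 and 2.70 CPM with DMSO and at 2.16, 2.49 and 2.33 CPM with MS41. Its groups did not overlap, yet its log2 fold change of -0.27 (SE 0.12) had an adjusted p of 0.073 in a contrast where 44.3% of genes were called. NRBF2 gave 0.08 (SE 0.04, adjusted p 0.17). By edgeR 0 of the 3 members tested were called at 24 h, 1 had an unadjusted p under 0.05, and DESeq2 called 0. Myeloid markers summed to between 3387 and 3593 CPM with MS41 at 24 h and between 2349 and 2400 CPM with DMSO, and their part in the REEP3 difference was not tested.

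The difference between the MS41 effect at 24 h and at 6 h was itself fitted. It was 0.30 for JMJD1C (SE 0.04, adjusted p 7.5e-09), where 26.4% of genes were called. It was 0.42 for JMJD1C-AS1 (SE 0.17, adjusted p 0.065) and 0.14 for NRBF2 (SE 0.06, adjusted p 0.082), and for REEP3 it was 0.55 (SE 0.05), given without a test. The REEP3 value arose against a control level that was itself lower at the later time. DMSO libraries averaged 91.2 ± 3.27 CPM at 6 h and 67.2 ± 3.44 CPM at 24 h, while MS41 libraries averaged 88.5 ± 2.05 CPM and 95.6 ± 2.90 CPM (SD, n = 3 each). With MS41N the REEP3 means were 86.7 ± 0.667 CPM at 6 h and 70.0 ± 3.04 CPM at 24 h, and with PFI-6 they were 93.5 ± 2.53 and 79.6 ± 1.32 CPM. So the MS41 group was the only group of the 4 whose mean was not lower at 24 h than at 6 h.

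**Figure D2:**
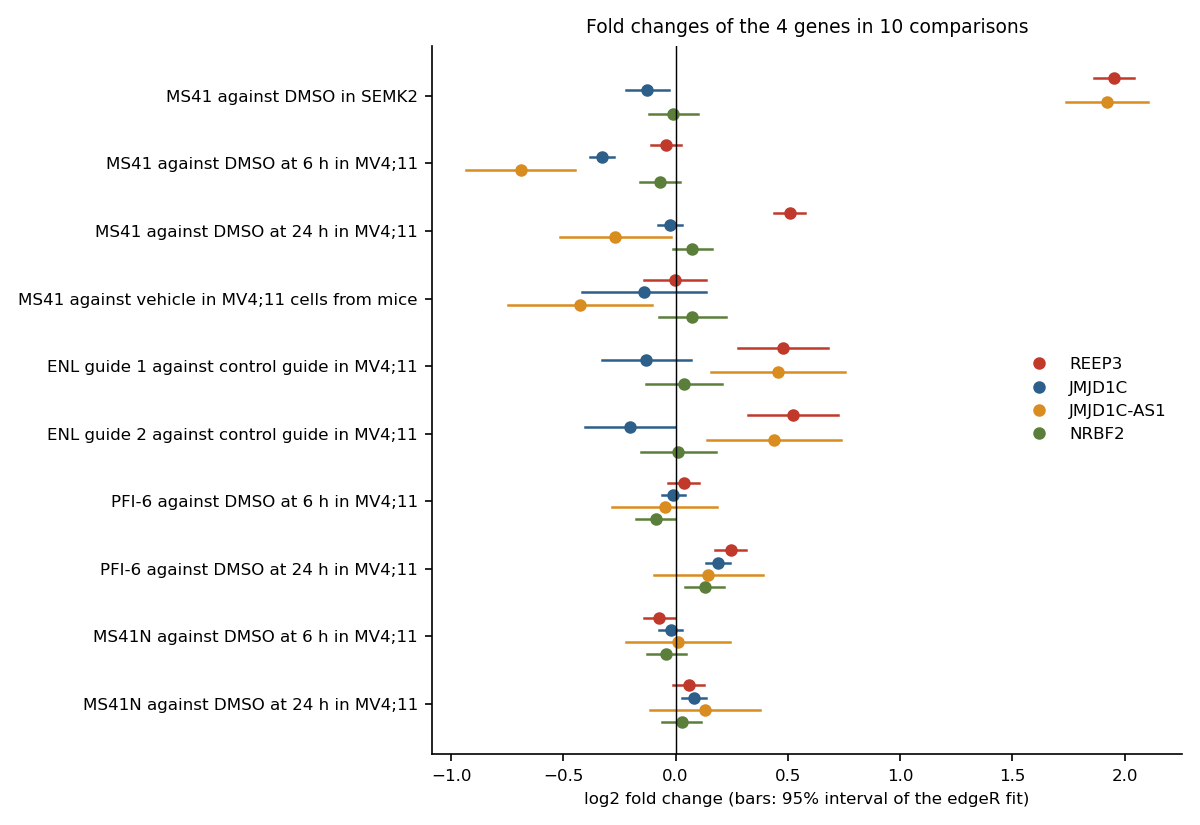
Log2 fold change (horizontal axis) of the 4 genes in 10 comparisons (rows), with bars for the 95% interval of the edgeR fit. REEP3 and JMJD1C-AS1 lie together at 1.95 and 1.92 in SEMK2 and at 0.50 and 0.45 in the mean of both ENL guides, shown here guide by guide, and lie apart with MS41 in MV4;11 at 24 h, at 0.51 and -0.27.

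MS41N gave no called difference in the locus. At 6 h the log2 fold change against DMSO was -0.07 for REEP3 (SE 0.03, adjusted p 0.57, 0.321% of genes called) and -0.02 for JMJD1C (SE 0.03, adjusted p 0.90). At 24 h it was 0.06 for REEP3 (95% interval -0.01 to 0.13, adjusted p 0.63) and 0.08 for JMJD1C (95% interval 0.03 to 0.13, adjusted p 0.27), where 0.0352% of genes were called. By edgeR, 0 of 4 members were called at either time, 1 of 4 had an unadjusted p under 0.05 at each, and DESeq2 called 0 at both.

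MS41 and MS41N were set against each other at both times, at the same dose if MS41N is the compound the protocol lists. At 6 h JMJD1C was 0.31 lower on the log2 scale with MS41 (SE 0.03, adjusted p 7.5e-13), and JMJD1C-AS1 was lower by 0.70 (SE 0.12, adjusted p 9.7e-06), with 21.8% of genes called. The NRBF2 difference was -0.03 (95% interval -0.12 to 0.06, adjusted p 0.75). At 24 h JMJD1C differed by -0.11 (SE 0.03, adjusted p 6.7e-04) and JMJD1C-AS1 by -0.40 (SE 0.12, adjusted p 0.0062), with 42.4% of genes called. Against DMSO at 24 h JMJD1C was at -0.03 with MS41 and at 0.08 with MS41N, neither of them called. The larger of these 2 departures from DMSO was thus that of MS41N. Without MS41N replicate 3 the JMJD1C-AS1 value at 24 h was -0.30 (adjusted p 0.074). NRBF2 differed by 0.05 (95% interval -0.04 to 0.14, adjusted p 0.41). REEP3, given without a test, differed by 0.03 (SE 0.03) at 6 h and by 0.45 (SE 0.03) at 24 h, and in the latter comparison its libraries did not overlap.

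PFI-6 raised REEP3, JMJD1C and NRBF2 at 24 h and none of the 4 at 6 h. REEP3 was at 79.6, 80.9 and 78.3 CPM with PFI-6 at 24 h, all above the DMSO range of 65.0 to 71.1 CPM. It rose by 0.25 on the log2 scale (SE 0.03, adjusted p 6.6e-06), and 12.4% of genes were called. JMJD1C was at 251, 257 and 244 CPM and rose by 0.19 (SE 0.03, adjusted p 6.6e-06), also without overlap. NRBF2 rose by 0.13 (SE 0.04, adjusted p 0.041), a call lost when the GC trend was removed (0.09, adjusted p 0.30) and without DMSO replicate 1 or 3 or PFI-6 replicate 1 or 2 (0.10 to 0.12, adjusted p 0.11 to 0.26). JMJD1C-AS1 gave 0.15 (SE 0.12, adjusted p 0.53). At 6 h the REEP3 value was 0.04 (95% interval -0.03 to 0.10, adjusted p 0.71) and the JMJD1C value -0.01 (95% interval -0.06 to 0.04, adjusted p 0.92), with 2.05% of genes called. By edgeR 0 of 4 members were called at 6 h, 1 had an unadjusted p under 0.05, and DESeq2 called 0. The JMJD1C values at 24 h thus stood at 0.19 with PFI-6 and -0.03 with MS41, 2 comparisons that share their DMSO libraries; the difference between the 2 compounds was not tested.

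In MV4;11 cells from mice, none of the 3 members tested was called. REEP3 was at 121.9, 132.3 and 128.9 CPM with vehicle and at 133.5, 122.6 and 126.6 CPM with MS41, a log2 fold change of -0.00132 (SE 0.06, given without a test) with overlapping groups. JMJD1C-AS1 was at 6.67, 8.002 and 8.25 CPM with vehicle and at 6.41, 5.40 and 5.26 CPM with MS41. Its groups did not overlap and its log2 fold change was -0.43 (SE 0.14), but the adjusted p was 0.58 in a fit that called 0.0328% of genes. JMJD1C gave -0.14 (SE 0.12, adjusted p 0.82) and NRBF2 gave 0.08 (SE 0.07, adjusted p 0.83). By replicate number JMJD1C was at 378, 503 and 480 CPM with vehicle and at 477, 368 and 389 CPM with MS41. Number 1 thus went the other way from numbers 2 and 3. Without vehicle replicate 1 or MS41 replicate 1 the JMJD1C value was -0.37 (adjusted p 0.027) or -0.38 (adjusted p 0.023). Replicate number is a term in this fit, so leaving out either library of number 1 removes that pair. These 2 values are therefore 1 result from the same remaining pairs, not 2 separate checks. By edgeR 0 of 3 members were called, 1 had an unadjusted p under 0.05, and DESeq2 called 0. The deposited values of these libraries had been tied together by replicate number, so each vehicle library mirrors the MS41 library of its number.

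Per kilobase of merged exons, JMJD1C was the most abundant of the 4 genes in every group except SEMK2 with MS41. In SEMK2 with DMSO the levels were 46.7 ± 3.04 CPM per kilobase for JMJD1C, 25.4 ± 1.18 for REEP3, 13.4 ± 0.258 for NRBF2 and 2.63 ± 0.102 for JMJD1C-AS1 (SD, n = 3). With MS41 REEP3 was at 98.4 ± 2.39 and JMJD1C at 42.9 ± 0.957 CPM per kilobase, so their order was exchanged. In MV4;11 with DMSO at 24 h the order was JMJD1C at 24.2 ± 0.583, NRBF2 at 16.1 ± 0.837, REEP3 at 12.9 ± 0.661 and JMJD1C-AS1 at 2.101 ± 0.0697 CPM per kilobase. REEP3 and NRBF2 were neighbours in that order in MV4;11. At 6 h with DMSO they stood at 17.5 ± 0.629 and 16.1 ± 0.225, and with MS41 at 24 h at 18.4 ± 0.558 and 16.9 ± 0.764, so REEP3 was the higher of the pair in those groups.

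Ratios within a library remove its scaling. The ratio of REEP3 to JMJD1C per kilobase was 0.545 ± 0.0123 in SEMK2 with DMSO and 2.30 ± 0.106 with MS41 (SD, n = 3). In MV4;11 it was 0.747 ± 0.025 with DMSO and 0.912 ± 0.0453 with MS41 at 6 h, and 0.532 ± 0.0203 and 0.771 ± 0.0149 at 24 h. The levels given above differed in JMJD1C at 6 h and in REEP3 at 24 h. With guides it was 0.373 and 0.389 in the controls, 0.594 and 0.567 with guide 1 and 0.652 and 0.607 with guide 2. In the mice it was 0.497 ± 0.0575 with vehicle and 0.546 ± 0.0501 with MS41, a difference smaller than the spread.

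The ratio of JMJD1C-AS1 to REEP3 per kilobase followed another course. It was 0.104 ± 0.00861 in SEMK2 with DMSO and 0.101 ± 0.0051 with MS41. These SEMK2 ratios restate the log2 fold changes of the contrast that chose the locus and are no further result. With the GC trend removed those fold changes were 1.90 for REEP3 and 2.01 for JMJD1C-AS1. In MV4;11 the ratio was 0.174 ± 0.0256 with DMSO and 0.112 ± 0.024 with MS41 at 6 h, and 0.163 ± 0.00869 and 0.0951 ± 0.00924 at 24 h. With the control guide it was 0.416 ± 0.0586, with guide 1 0.407 ± 0.0252 and with guide 2 0.389 ± 0.00292 (SD, n = 2), which overlapped. In the mice it was 0.233 ± 0.0184 with vehicle and 0.174 ± 0.0128 with MS41 (SD, n = 3), without overlap and not tested. Levels of different tables were scaled separately, but a ratio within a library does not depend on that scaling. It still differed between tables among MV4;11 controls, at 0.163 with DMSO at 24 h and 0.416 with the control guide. The cause was not tested, so the ratios are to be read within a table. By sequence JMJD1C-AS1 is 63.9% G or C and REEP3 35.2%.

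**Figure D3:**
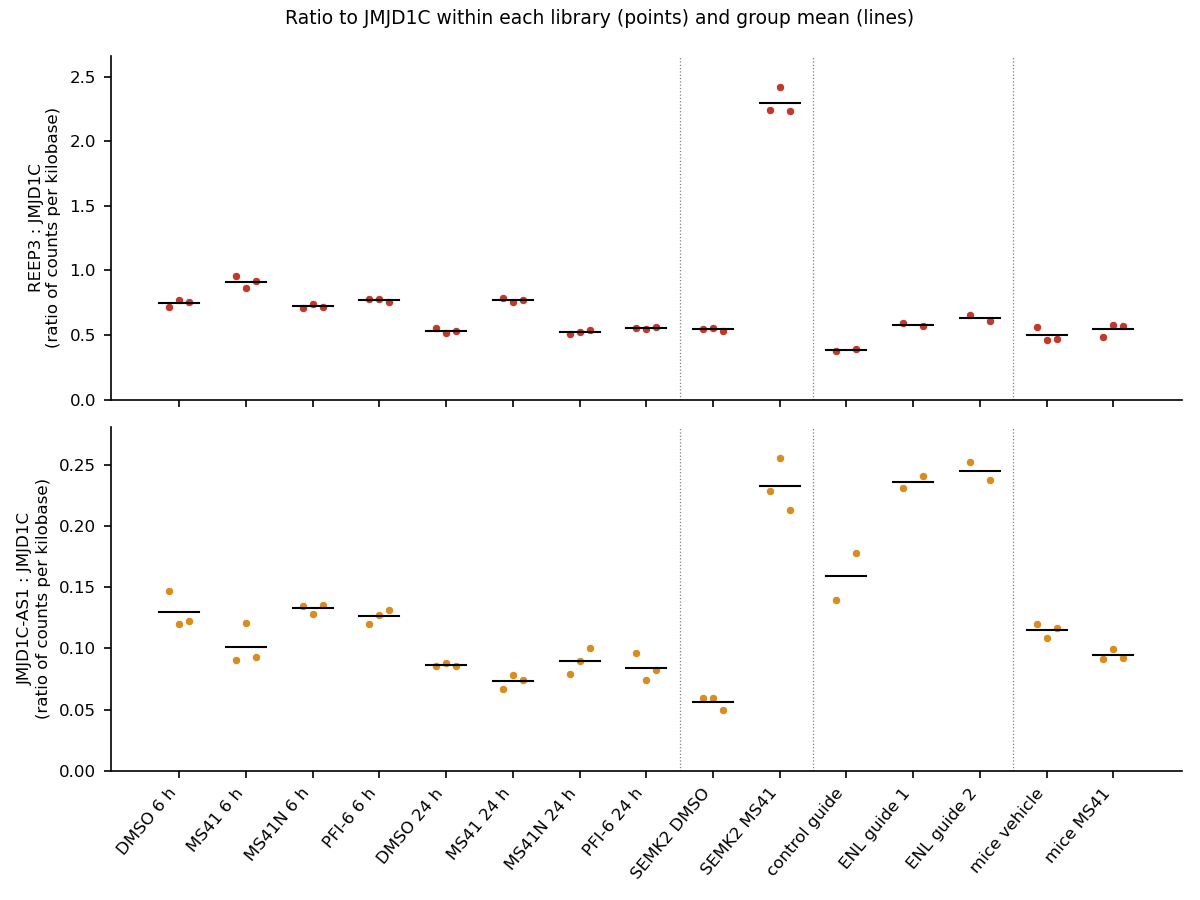
Ratio of REEP3 (top) and of JMJD1C-AS1 (bottom) to JMJD1C, per kilobase of merged exons, in each library (points) and as group means (lines), on linear axes from 0. The SEMK2 MS41 libraries reach 2.23 to 2.42 for REEP3, against 0.533 to 0.558 with DMSO, and every library of the other groups lies below 1.

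Within 2 Mb of the REEP3 start the annotation holds 36 other genes, of which 10 passed the count filter in SEMK2, 9 in the MV4;11 compound table, 7 with guides and 7 in the mice. In SEMK2, 1 of the 10 was called, where the background was 1.36%. This was ARID5B, a DNA-binding protein, 1620 kb away, at 46.2 ± 0.473 CPM with DMSO and 64.3 ± 1.29 CPM with MS41 (log2 fold change 0.48, SE 0.04). The pseudogene AC022022.1 lies between the starts of JMJD1C-AS1 and REEP3 on their strand and did not pass the filter: it had 14 counts over the 3 DMSO libraries and 11 over the 3 MS41 libraries. Further out, EGR2, an early growth response factor 601 kb away, gave 0.27 (SE 0.12, adjusted p 0.39) in SEMK2.

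In MV4;11 with MS41 at 24 h, 2 of 9 neighbours rose and 2 fell, a share like the 44.3% called over all genes. ARID5B rose by 3.06 on the log2 scale (SE 0.51), from a mean of 0.149 to 1.26 CPM, and EGR2 by 1.62 (SE 0.24), from 0.712 to 2.20 CPM. The pseudogenes TATDN1P1 and DBF4P1 fell by 0.33 and 0.30, and as processed copies they can share reads with their parent genes. At 6 h, where 26.0% of all genes were called, RTKN2 rose by 0.94 (SE 0.28), while ADO, a thiol dioxygenase, fell by 0.15 (SE 0.04) and TATDN1P1 by 0.36. With the guides 0 of 7 neighbours were called by edgeR, where 10.3% of all genes were, 0 had an unadjusted p under 0.05 and DESeq2 called 0. In the mice, where edgeR called 0.0328% of all genes, it called 0 of 7, 1 had an unadjusted p under 0.05 and DESeq2 called 1.

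**Figure D4:**
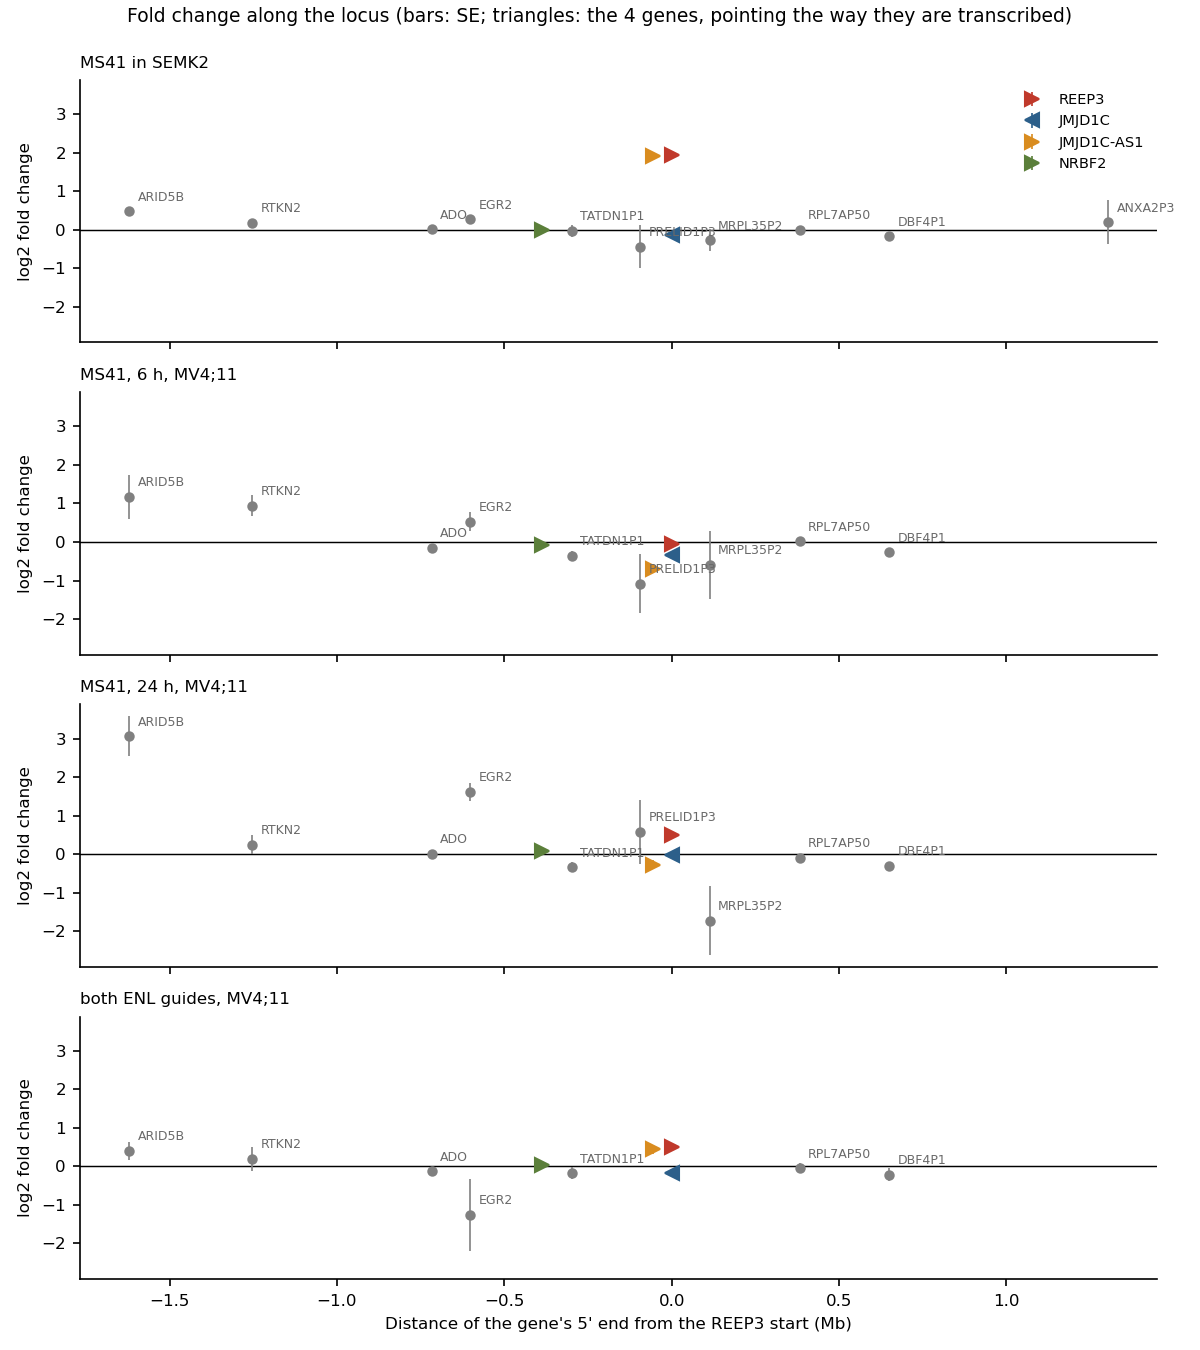
Log2 fold change (vertical axis) against the distance of each gene's 5′ end from the REEP3 start in Mb (horizontal axis), for the 4 genes (triangles, pointing the way they are transcribed) and the measured neighbours (grey points), with SE bars, in 4 comparisons. In SEMK2 the triangles of REEP3 and JMJD1C-AS1 stand at 1.95 and 1.92 while no neighbour is above 0.48, and in MV4;11 at 24 h ARID5B at 3.06 and EGR2 at 1.62 lie above REEP3 at 0.51.

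Of 18 other genes of the REEP family and of ER tubule shaping, edgeR called 0 in SEMK2, where 1.36% of all genes were called, so the count is near the background. Of these 18, 1 had an unadjusted p under 0.05 and DESeq2 called 0. Their median log2 fold change was -0.01, beside 0.00 (0.000932) over all genes tested. In MV4;11 with MS41 at 24 h, 6 of 18 rose and 5 fell, beside 44.3% of all genes called. REEP1, a neuronal paralogue, rose by 1.97 (SE 0.24), ATL1, which fuses ER tubules, by 0.87 (SE 0.16) and RTN2, a reticulon, by 0.44 (SE 0.10). CKAP4, which spaces ER sheets, fell by 0.80 (SE 0.20), TMEM33 by 0.44 (SE 0.03) and ATL3, another atlastin, by 0.30 (SE 0.03). At 6 h 3 of 18 rose, REEP1 again by the most at 1.04 (SE 0.22), and 2 fell, beside 26.0% of all genes. With the guides, where 10.3% of all genes were called, 1 of 17 rose, ATL1 by 0.87 (SE 0.20), and 3 fell, CKAP4 by 0.63 (SE 0.14), TMEM33 by 0.28 (SE 0.06) and ATL3 by 0.25 (SE 0.06).

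Among 10 other JmjC proteins of the KDM3 list, which holds further H3K9 demethylases, 1 of 10 rose in SEMK2, beside 1.36% of all genes called: KDM7A by 0.27 (SE 0.05). In MV4;11 at 6 h, where JMJD1C fell and 26.0% of all genes were called, 2 of 9 rose and 1 fell, KDM4A by 0.21 (SE 0.04). At 24 h, with 44.3% of all genes called, 6 of 9 rose and 0 fell, with a median of 0.20 beside 0.02 over all genes. KDM7A rose by 1.34 (SE 0.25), KDM4C by 0.35 (SE 0.04) and KDM4B by 0.21 (SE 0.05). With the guides edgeR called 0 of 9, beside 10.3% of all genes, 1 had an unadjusted p under 0.05 and DESeq2 called 1.

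Of 14 other genes of the class III phosphatidylinositol 3-kinase complexes and of autophagy initiation, edgeR called 0 in SEMK2, beside 1.36% of all genes, 1 had an unadjusted p under 0.05 and DESeq2 called 0. In MV4;11 with MS41 at 24 h, 7 of 14 rose and 2 fell where 44.3% of all genes were called, with a median of 0.10 beside 0.02 over all genes. WIPI1, which binds the lipid product of the kinase, rose by 1.58 (SE 0.17), UVRAG, a subunit of the endosomal complex, by 0.39 (SE 0.03) and RUBCN, its inhibitor, by 0.41 (SE 0.05). ATG101, of the ULK1 complex, fell by 0.46 (SE 0.10), and PIK3R4, a scaffold of the complexes that hold NRBF2, by 0.27 (SE 0.03). At 6 h 2 of 14 rose and 2 fell, beside 26.0% of all genes called. With the guides 1 of 14 was called, beside 10.3% of all genes: UVRAG, higher by 0.32 (SE 0.07).

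Across the 24 MV4;11 compound libraries, log2 CPM of each member was correlated with the other genes among 9252 whose mean was at least 3. The points share tables, treatments and times, so the values are descriptions. RIOK3, a kinase, was most like REEP3 (Pearson r 0.944), followed by MS4A7, TPM4, ERAP1 and EPB41L3 at 0.92. FCHSD2 was most like JMJD1C (r 0.953), followed by CLINT1, LYST, SCAMP1 and UBE2Q2. RANBP9 was most like NRBF2 (r 0.848). REEP3 and JMJD1C, which share their start region, had an r of -0.386, and JMJD1C and NRBF2 an r of 0.614. JMJD1C-AS1 was below that level in these libraries and was not ranked.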

How the data were processed

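RNA-seq was analysed for 42 libraries in 15 groups, taken from the sample labels. Per the submitters' processing notes the authors used CASAVA 1.8, HISAT2 2.1.0 and HTSeq 0.11.3 with hg38; settings are not given in the sources used here. The deposited values for cultured cells are counts per gene. The deposited values for the mice are whole numbers handled here under the unit expected counts, because same-numbered libraries had been adjusted together: the SD of pair means was 0.00207 log2 units for same numbers and 0.0295 to 0.0481 for other matchings over 9508 genes. All 58721 gene identifiers matched GENCODE release 29 (GRCh38).

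Each table was filtered (filterByExpr), TMM-scaled and fitted over all its genes with edgeR 4.0.16 (robust quasi-likelihood, R 4.3.3), with Benjamini-Hochberg adjustment over all genes tested and a threshold of 0.05. The fit left 22711 genes in the compound table, 21433 in SEMK2, 17984 with guides and 21337 in the mice. Replicate number is a term in the mouse fit only, since the labels tie no libraries by number and the deviations of same-numbered libraries had r from -0.03 to 0.05 in the compound table and -0.01 to 0.02 in SEMK2. With guides, where 2 replicates cannot settle it, r was 0.24 for guide 1 and 0.02 for guide 2. Alternatives were DESeq2 1.42.0, RLE scaling, no filter, a GC trend removed, the replicate block and each library left out. The fitting was tested on simulated data.

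The members and gene lists were chosen with earlier results of these data known. The genes named are the 4 members, neighbours within 2 Mb that passed the filter, and genes of 3 lists. The highest-ranked other SEMK2 genes and the pseudogene AC022022.1 were named after their values were seen. Likeness was the Pearson correlation over 24 libraries.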

Additional observations from a re-analysis of the deposited data

Results flagged for a closer look

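The MS41 effect on JMJD1C in MV4;11 differed between times, by 0.30 on the log2 scale (24 h minus 6 h) in a test of the difference itself. JMJD1C was lower with MS41 at 6 h and did not pass the test at 24 h.

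JMJD1C-AS1 stood out because every MS41 library was above the DMSO libraries in SEMK2, while every MS41 library was below its controls in MV4;11. Of the MV4;11 decreases, the edgeR test called that at 6 h. It did not call those at 24 h (adjusted p 0.073) and in the mice (adjusted p 0.58). With guides against ENL, JMJD1C-AS1 was instead higher in MV4;11, by 0.45 over both guides (edgeR adjusted p 0.034). That call was lost when any library was left out, and neither guide alone was called. How many of all genes had groups without overlap was not counted. The log2 fold change of JMJD1C-AS1 in SEMK2 was larger than in MV4;11 by 2.61 at 6 h, by 2.19 at 24 h and by 2.35 in the mice. These differences were not tested, since the tables were scaled separately and the SEMK2 value belongs to the contrast that chose the locus.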

How the results depend on the processing

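Over the 4 genes in 14 comparisons, 305 of the values under alternatives other than leaving out a library counted as unchanged. Tested values among them kept their side of the threshold, and values given without a test moved by less than the spread. A change of direction was looked for only in called values and in untested values whose groups did not overlap. Of the other values, 16 passed the threshold newly, 2 no longer passed and 9 moved further. With the GC trend removed, REEP3 moved to -0.094 with MS41 at 6 h, -0.0044 against MS41N at 6 h, 1.90 in SEMK2 and -0.12 in the mice, and JMJD1C-AS1 to 2.01 in SEMK2. NRBF2 then passed at 24 h with MS41 (0.11), against MS41N (0.10) and in the difference between times (0.16), and no longer passed with PFI-6 (0.086). JMJD1C-AS1 then passed in the difference between times (0.54) and with guide 1 (0.54). DESeq2 also passed it there (0.42 and 0.46), as did no filter with guide 1 (0.48). The cause was not tested.

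Outside the mice nothing in the labels ties same-numbered libraries together. With the replicate block alone, JMJD1C-AS1 passed with guide 1 (0.46) and guide 2 (0.44); the block ended no call of the 4 genes. With the block and the GC trend removed, the same comparisons gave close values (REEP3 -0.094, -0.0046 and 1.90, JMJD1C-AS1 2.01, 0.54 and 0.54, NRBF2 0.11, 0.10, 0.16 and 0.087), and JMJD1C-AS1 also passed with guide 2 (0.50), which it did not with the GC trend removed and no block.

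Leaving out each library in turn gave the following ranges where a call changed or a value moved. REEP3 ranged from 0.37 to 0.60 with guide 1, from 0.42 to 0.64 with guide 2 and from -0.068 to 0.052 in the mice. JMJD1C ranged from -0.30 to -0.012 over both guides, -0.26 to 0.023 with guide 1, -0.34 to -0.048 with guide 2 and -0.38 to 0.017 in the mice. JMJD1C-AS1 ranged from 0.42 to 0.48 over both guides, -0.49 to -0.30 against MS41N at 24 h and 0.33 to 0.58 in the difference between times. NRBF2 ranged from 0.040 to 0.12 with MS41 at 24 h, 0.10 to 0.17 with PFI-6 at 24 h and 0.11 to 0.19 in the difference between times. REEP3 in SEMK2 ranged from 1.93 to 1.99.

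Counts of genes called over whole tables, used only as background, depended more on the settings. For SEMK2 the 291 ranged from 296 to 1047 over other settings and from 100 to 2986 with a library left out. The guides together went from 1853 to between 1739 and 3203, or 940 and 2621, guide 1 from 1346 to between 1225 and 2578, or 596 and 2191, and guide 2 from 888 to between 830 and 1932, or 269 and 1874. PFI-6 went from 466 to between 426 and 806, or 126 and 309, at 6 h and from 2806 to between 634 and 3436, or 1381 and 2458, at 24 h. MS41N went from 73 to between 77 and 182, or 12 and 64, at 6 h and from 8 to between 7 and 83, or 0 and 9, at 24 h. The mice went from 7 to between 7 and 523, the latter with no replicate block, or 0 and 35. JMJD1C-AS1, with 252 to 2626 counts per library, sets the weakest precision among the 4 genes.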
